A study of Arabidopsis thaliana with 15 samples.

Results

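The DNA replication machinery was followed as 46 genes that encode the proteins which mark, open and copy chromosomal DNA, chosen by their gene identifiers from the 33326 genes of the expression table. All 46 passed the filter on low values (TPM no lower than 1 in 3 or more libraries, where TPM is a transcript's level per length, scaled so that each library has the same total), as did 21737 genes in all. RNA had been sequenced from inflorescence meristems of Arabidopsis thaliana, each library from a pool of 36 meristems, in 5 groups of 3 libraries. The groups were pMYB3R4::GFP-MYB3R4mNES (the mNES line below), in which the promoter of MYB3R4 drives a GFP-tagged MYB3R4, myb3r1myb3r4 (the double mutant below), myb3r4, myb3r1 and the wild type Col-0. The labels do not say which alleles the mutants carry, what mNES stands for, or in which genotype the transgene sits. All plants grew with 16 h of light at 170 µmol m-2 s-1 and 8 h of dark, at 21 °C by day and 17 °C by night. Their apices were taken at a stem length near 1 cm. Only open flowers were removed, so that closed flower buds could remain on the samples. The labels number the replicates by a shift experiment that they do not explain, and they do not say whether replicates came from separate sets of plants. The p-values therefore measure the spread between these samples.

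Before a cell copies its DNA, the origin recognition complex binds the chromosome, and CDC6 and CDT1 load a ring of the MCM2 to MCM7 proteins there, a step known as licensing. In S phase CDC45 and the GINS complex turn that ring into the active helicase, DNA polymerase alpha with its primase starts each strand, and polymerases delta and epsilon extend it on the sliding clamp PCNA. Ribonucleotide reductase and thymidine kinase supply nucleotides, and chromatin assembly factor 1 wraps the new DNA around histones. In plants, E2F transcription factors are known to act on many of these genes at the onset of S phase, whereas MYB3R proteins are known for genes of the G2 and M phases.

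The DNA just upstream of the members carried the letters of a textbook E2F element in a larger share of genes than upstream DNA did in general. The 250 bases before each annotated gene start were searched on both strands in the TAIR10.1 assembly for 8 spellings of the element, TTTCCCGC, TTTCCCGG, TTTCGCGC, TTTCGCGG, TTTGCCGC, TTTGCCGG, TTTGGCGC and TTTGGCGG, counting overlapping matches separately. At least 1 match was found in 19 of the 46 members (41.3%) and in 768 of 27443 protein-coding genes (2.8%). AACGG, the core of the MSA element to which MYB3R proteins bind, was found in 11 members (23.9%) and in 20.6% of the protein-coding genes. Among the genes of the MCM2 to MCM7 ring, 5 of 6 held an E2F match and MCM7 held none. The 100 bases before the start of each of these 6 genes, and of 3 further members described below (CDC45, AT1G07270 and ICU2), are shown from 5′ to 3′ on the gene's own strand, with E2F matches in capitals; a second match in MCM3 lies farther upstream, 163 bases before the start. The windows are chr1:16970114-16970213, plus strand (MCM2), chr5:18773707-18773806, minus strand (MCM3), chr2:7130730-7130829, minus strand (MCM4), chr2:3527501-3527600, minus strand (MCM5), chr5:18010668-18010767, minus strand (MCM6), chr4:900536-900635, plus strand (MCM7), chr3:9143816-9143915, plus strand (CDC45), chr1:2233018-2233117, minus strand (AT1G07270) and chr5:26776853-26776952, plus strand (ICU2).
MCM2: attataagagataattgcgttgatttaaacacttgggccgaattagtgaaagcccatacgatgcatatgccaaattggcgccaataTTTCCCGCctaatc
MCM3: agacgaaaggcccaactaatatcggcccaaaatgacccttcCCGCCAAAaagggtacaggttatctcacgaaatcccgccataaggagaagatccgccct
MCM4: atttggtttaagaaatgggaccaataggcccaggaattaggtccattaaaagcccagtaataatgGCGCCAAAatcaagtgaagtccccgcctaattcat
MCM5: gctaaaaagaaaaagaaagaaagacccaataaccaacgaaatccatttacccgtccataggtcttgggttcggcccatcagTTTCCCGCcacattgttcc
MCM6: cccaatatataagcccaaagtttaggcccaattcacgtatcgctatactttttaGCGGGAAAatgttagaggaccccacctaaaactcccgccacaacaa
MCM7: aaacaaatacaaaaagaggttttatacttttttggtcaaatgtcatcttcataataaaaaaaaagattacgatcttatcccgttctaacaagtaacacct
CDC45: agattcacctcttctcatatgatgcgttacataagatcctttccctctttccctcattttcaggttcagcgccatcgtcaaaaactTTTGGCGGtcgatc
AT1G07270: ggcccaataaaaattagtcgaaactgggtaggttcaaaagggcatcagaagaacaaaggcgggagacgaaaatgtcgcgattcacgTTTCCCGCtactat
ICU2: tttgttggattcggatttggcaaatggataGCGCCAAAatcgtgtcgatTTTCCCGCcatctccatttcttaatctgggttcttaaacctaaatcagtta
These matches lay close to the annotated start: the nearest one was 7 bases before it in MCM2, CDC45 and AT1G07270, 12 in MCM5, 28 in MCM4, 39 in MCM6, 44 in ICU2 and 52 in MCM3. A match describes the letters of the DNA only.

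The labels and the tissue were checked on the deposited values. MYB3R4 was at 58.9 to 63.5 TPM in the mNES line, where reads of the transgene count toward it, at 16.8 to 17.4 TPM in the double mutant, 12.7 to 13.4 TPM in myb3r4 and 10.4 to 12.8 TPM in Col-0, and MYB3R1 was at 17.2 to 18.1 TPM in myb3r1 and 13.1 to 13.5 TPM in Col-0. As the labels do not give the alleles, these gene levels do not check the mutant labels. The meristem gene STM was at 44.2 TPM or more in each of the 15 libraries, and CLV3, a defining gene of meristem stem cells, was at 0 to 0.275 TPM. The totals of 2 lists of markers of cells in flower buds differed between the groups. The 6 anther and tapetum genes summed to 226 to 379 TPM in the mNES line, 802 to 947 TPM in the double mutant and 433 to 534 TPM in Col-0, and the 5 meiocyte genes to 22.1 to 25.5, 38.8 to 39.6 and 26.7 to 28.2 TPM in the same 3 groups. The 5 genes of green leaf tissue summed to 8557 to 8589 TPM in the mNES line, 7086 to 7727 TPM in the double mutant, 8125 to 8295 TPM in myb3r4, 8394 to 8636 TPM in myb3r1 and 9019.6 to 9720.4 TPM in Col-0, highest in Col-0. Read totals are not kept in TPM, so depth and counting error are unknown.

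The 46 members together were most abundant in the double mutant. They summed to 942 to 979.9 TPM in the mNES line, 1169 to 1219.7 TPM in the double mutant, 995 to 1048 TPM in myb3r4, 1029 to 1062 TPM in myb3r1 and 962 to 1003 TPM in Col-0, so that no library of another group reached the range of the double mutant. Of the 46 members, 39 had their highest group mean in the double mutant, as did 42% of all genes tested, and 31 had their lowest mean in the mNES line, as did 37.5%. In an F test across the 5 groups 32 members differed (limma, Benjamini-Hochberg adjusted p under 0.05 over all 21737 genes, here and below), against a background of 55.9% of all genes. Within Col-0 the mean level ran from 1.01 ± 0.177 TPM for TIL2, a second gene for the catalytic subunit of polymerase epsilon, to 86.7 ± 8.21 TPM for TSO2, a small subunit of ribonucleotide reductase (mean ± SD, n = 3 per group, here and below). The 6 ring genes lay close together, with 23.1 TPM for MCM6 as the lowest and 35.4 TPM for MCM7 as the highest mean in Col-0.

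**Figure D1:**
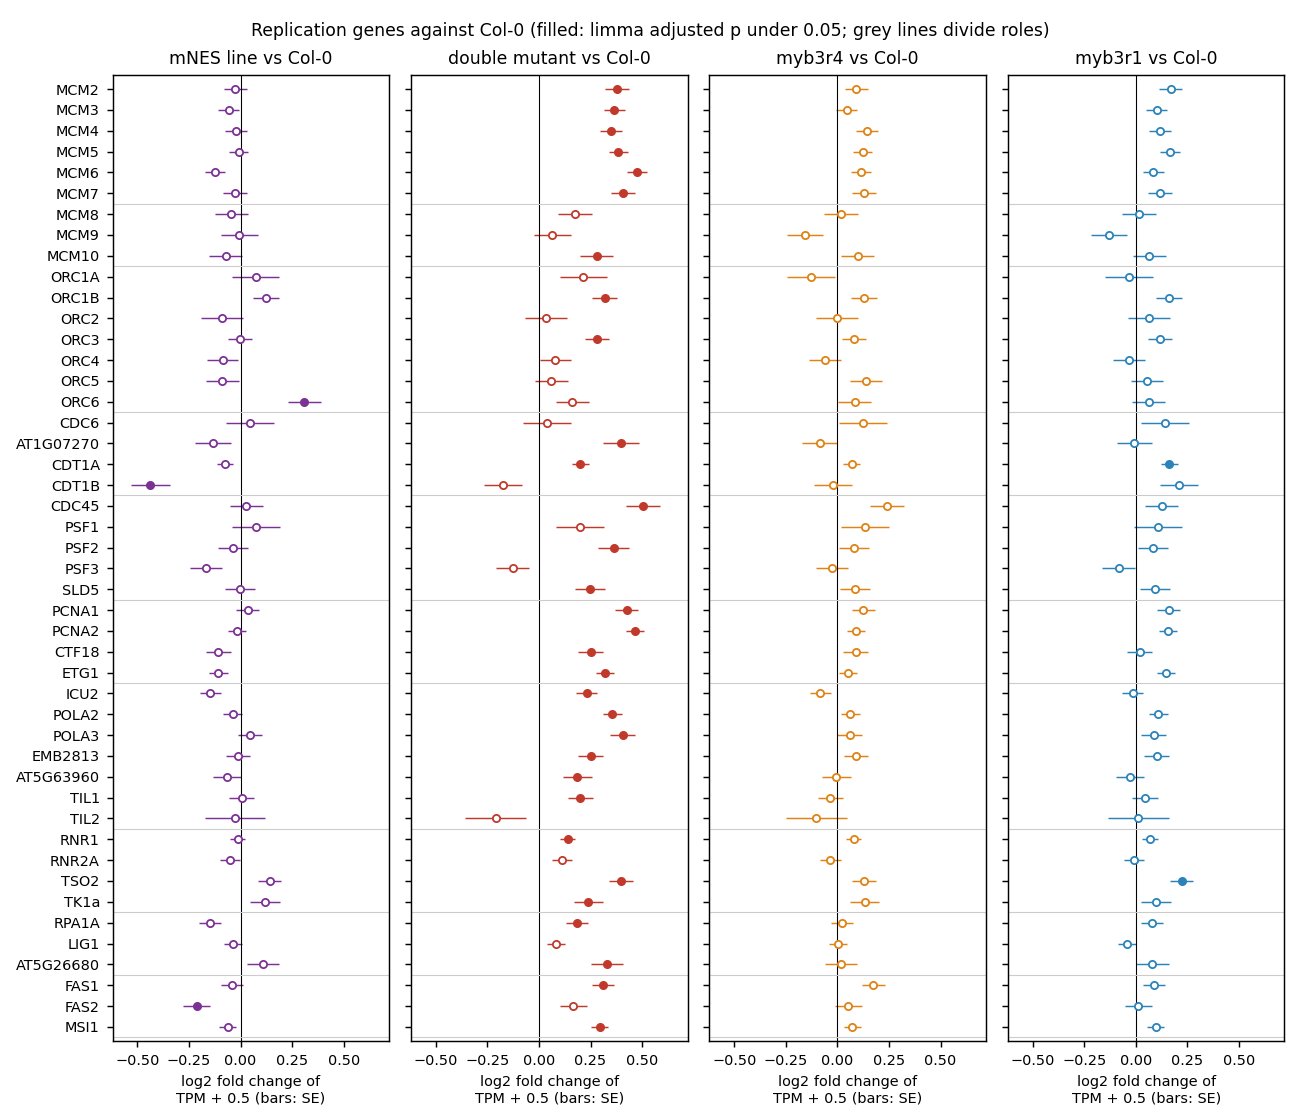
Log2 fold changes of the 46 replication genes on the log2(TPM + 0.5) scale against Col-0 (x axis) in the mNES line, the double mutant, myb3r4 and myb3r1, with genes in rows by role, bars for standard errors and filled points for an adjusted p under 0.05. In the double mutant 31 points are filled, all to the right of 0, against 3 in the mNES line, 0 in myb3r4 and 2 in myb3r1.

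Set against Col-0, the double mutant had more of most replication transcripts. In it 31 of the 46 members were higher, 0 were lower and 15 did not pass the test, and the background was 24.5% of all genes higher and 17.1% lower. The changes were small. The median log2 fold change (on log2(TPM + 0.5), here and below) was 0.25 over the members and 0.05 over all genes tested, and the members that passed were higher by 10.1% to 41.8% on the scale of TPM + 0.5. The libraries of the groups did not overlap for 36 members that were higher and 1 that was lower, against 31.8% and 20.9% of all genes. Without Col-0 replicate 3, 1 member (CDT1B) was lower by the test. With the libraries scaled by the median of their ratios, 27 members were higher and 0 lower, while the share of higher genes among all calls was 44.1%, against 58.9% with TPM as deposited, and the background was 17% higher and 21.5% lower. In these pooled samples, more cells in S phase and more RNA of these genes per cell cannot be told apart. The anther and meiocyte markers moved the same way, with 5 of 6 and 4 of 5 higher, while all 5 genes of green leaf tissue were lower (median -0.55). Of the 4 meristem genes tested, 1 was lower and 0 higher. The part of these tissues in the result was not tested.

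All 6 genes of the MCM2 to MCM7 ring were higher in the double mutant, by 0.35 to 0.48 on the log2 scale. MCM6 was at 20.6, 21.5 and 21.3 TPM in the mNES line, 30.4, 32.8 and 33.6 TPM in the double mutant, 26.0, 25.4 and 23.6 TPM in myb3r4, 24.2, 23.7 and 25.6 TPM in myb3r1 and 23.7, 22.9 and 22.6 TPM in Col-0. The double mutant stood above every other library, and the mNES line below every other. The change of MCM6 in the double mutant was 0.48 (SE 0.05, limma adjusted p = 1.02e-05). MCM7 was at 47.3, 44.8 and 49.2 TPM in the double mutant and 37.1, 34.6 and 34.7 TPM in Col-0, a change of 0.41 (SE 0.06, limma adjusted p = 0.000119); it overlaps another annotated gene on the other strand, and the kit is not described as marking strand, so its value is uncertain. MCM2 was at 35.3, 34.4 and 34.1 TPM in the double mutant and 27.2, 25.6 and 26.6 TPM in Col-0 and changed by 0.38 (SE 0.06, limma adjusted p = 0.000147). MCM3, MCM4 and MCM5 changed by 0.37, 0.35 and 0.38, with no overlap between the groups. As a whole the ring genes summed to 160.0 to 171 TPM in the mNES line, 220.5 to 232 TPM in the double mutant, 176 to 195 TPM in myb3r4, 182 to 192 TPM in myb3r1 and 165 to 179 TPM in Col-0. The ratio between the highest and the lowest mean of the 6 genes was 1.65 in the mNES line, 1.46 in the double mutant, 1.55 in myb3r4, 1.57 in myb3r1 and 1.54 in Col-0.

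**Figure D2:**
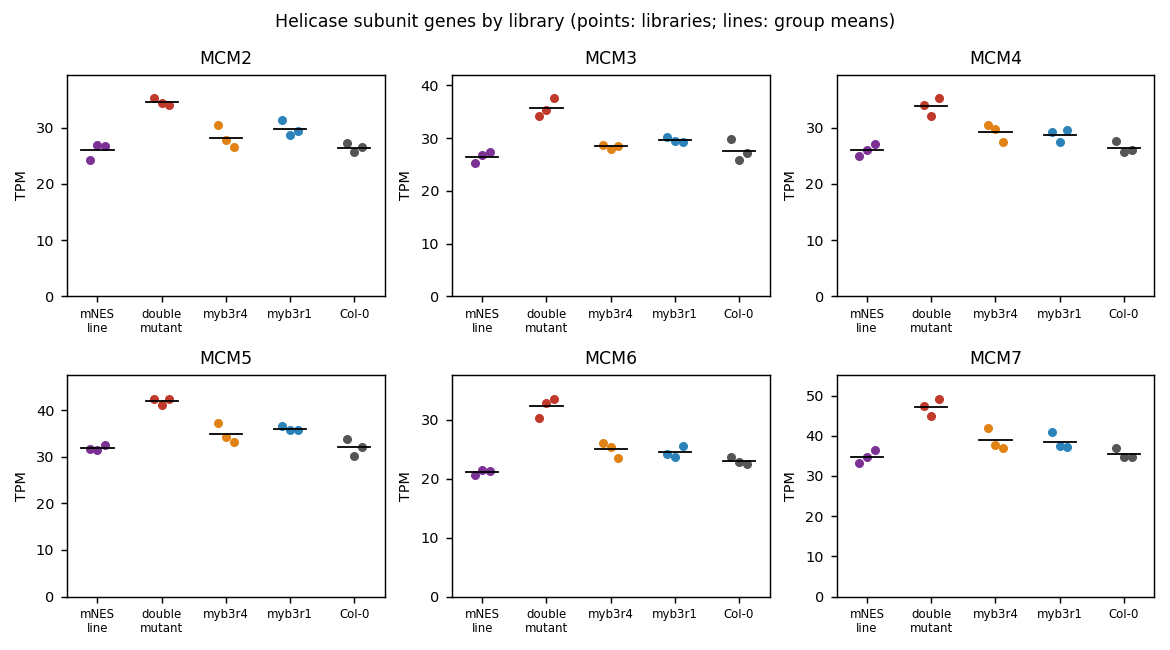
TPM (y axis, from 0) of the 6 helicase ring genes in each of the 15 libraries (points), by group on the x axis, with lines for group means. For each gene the 3 libraries of the double mutant lie above the 12 others, for MCM6 at 30.4 to 33.6 TPM.

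The MCM proteins outside the ring and the proteins that load it changed gene by gene. MCM10, which acts with CDC45 at the start of synthesis, was at 8.90, 8.28 and 9.51 TPM in the double mutant and 6.96, 8.09 and 6.71 TPM in Col-0, a change of 0.28 (SE 0.08, limma adjusted p = 0.0142). MCM8 and MCM9, known for roles in recombination and repair, had log2 fold changes of 0.18 and 0.07 and did not pass the test. Of the 7 origin recognition genes, ORC1B and ORC3 were higher, by 0.32 and 0.28 (adjusted p = 0.00117 and 0.00166), and ORC1A, ORC2, ORC4, ORC5 and ORC6 lay between 0.03 and 0.22 without passing. ORC1B was at 8.30, 8.27 and 7.74 TPM in the double mutant and 6.76, 6.16 and 6.30 TPM in Col-0, with no overlap.

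AT1G07270, annotated as a CDC6 protein, was at 3.18, 3.72 and 3.74 TPM in the mNES line, 5.60, 5.24 and 5.20 TPM in the double mutant, 3.97, 3.82 and 3.27 TPM in myb3r4, 3.89, 3.82 and 4.02 TPM in myb3r1 and 3.78, 3.92 and 4.10 TPM in Col-0. The double mutant stood above all 12 other libraries. Among these, myb3r4 overlapped with each other group, while the mNES line lay below myb3r1 and Col-0. Its change against Col-0 was 0.40 (SE 0.09, limma adjusted p = 0.00247). The gene named CDC6 was at 5.998, 6.27 and 7.71 TPM in the double mutant and 6.46, 6.13 and 6.74 TPM in Col-0, with overlapping libraries and a difference of 0.04 (adjusted p = 0.822). CDT1A, which with CDC6 loads the ring, was at 25.2, 24.5 and 25.7 TPM in the double mutant and 22.1, 21.4 and 21.9 TPM in Col-0, a change of 0.20 (SE 0.04, limma adjusted p = 0.00147). Its paralog CDT1B was at 11.6, 12.002 and 13.2 TPM in the double mutant and 15.3, 14.4 and 12.1 TPM in Col-0. These libraries of CDT1B overlapped, and the difference of -0.17 did not pass (adjusted p = 0.153).

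Among the genes that switch the helicase on, CDC45 had the largest log2 fold change of all 46 members in the double mutant. It was at 6.496, 6.999 and 7.88 TPM in the mNES line, 10.2, 9.36 and 10.7 TPM in the double mutant, 8.09, 8.47 and 8.35 TPM in myb3r4, 7.60, 7.65 and 7.63 TPM in myb3r1 and 6.65, 6.43 and 7.86 TPM in Col-0. Against Col-0 it changed by 0.50 (SE 0.08, limma adjusted p = 0.000304) in the double mutant, whose lowest library stood above every library of the other groups. Of the 4 GINS genes, PSF2 and SLD5 were higher, by 0.36 and 0.25 (adjusted p = 0.00156 and 0.0157). PSF1 and PSF3 did not pass, at 0.20 and -0.13 (adjusted p = 0.194 and 0.216), although the 4 proteins form 1 complex. PSF3 was at 22.3, 22.5 and 22.2 TPM in the double mutant and 22.6, 24.7 and 26.3 TPM in Col-0, and was the 1 lower member whose libraries did not overlap.

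The sliding clamp genes were both higher. PCNA2 was at 59.9, 62.7 and 64.9 TPM in the mNES line, 88.8, 84.8 and 89.0 TPM in the double mutant, 69.2, 69.9 and 63.2 TPM in myb3r4, 70.3, 71.6 and 69.3 TPM in myb3r1 and 64.7, 60.9 and 64.0 TPM in Col-0. Its libraries in the double mutant lay above all others, and it changed by 0.47 (SE 0.04, limma adjusted p = 4.25e-06) against Col-0. PCNA1 was at 65.0, 72.1 and 73.7 TPM in the double mutant and 53.1, 50.7 and 52.6 TPM in Col-0, a change of 0.43 (SE 0.06, limma adjusted p = 6.41e-05), again with no overlap. CTF18, part of an alternative clamp loader, and ETG1, an MCM-binding protein with a known role in sister chromatid cohesion, were higher by 0.25 and 0.32 (adjusted p = 0.00451 and 8.73e-05).

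Of the 7 genes for polymerases and primase, 6 were higher in the double mutant. POLA3, the small subunit of primase, was at 24.8, 26.0 and 26.6 TPM in the double mutant and 20.7, 18.6 and 18.9 TPM in Col-0, a change of 0.41 (SE 0.06, limma adjusted p = 0.000151). ICU2, the catalytic subunit of polymerase alpha, was at 12.4, 11.6 and 11.6 TPM in the mNES line, 15.9, 15.6 and 15.3 TPM in the double mutant, 13.0, 12.7 and 11.6 TPM in myb3r4, 12.9, 13.2 and 13.1 TPM in myb3r1 and 13.3, 12.7 and 13.7 TPM in Col-0. Here too the double mutant lay above every other library, with a change of 0.23 (SE 0.05, limma adjusted p = 0.00284) against Col-0. POLA2, the regulatory subunit of polymerase alpha, changed by 0.35, EMB2813, the large subunit of primase, by 0.25, AT5G63960, annotated as the first subunit of polymerase delta, by 0.19, and TIL1, the main catalytic subunit of polymerase epsilon by level, by 0.20 (adjusted p = 5.12e-05, 0.00447, 0.0452 and 0.0183). TIL2 was at 0.762, 0.743 and 0.890 TPM in the double mutant and 1.14, 0.805 and 1.08 TPM in Col-0 and did not pass, at -0.21 (adjusted p = 0.272).

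Nucleotide supply showed the same direction. TSO2 was at 114, 111 and 116 TPM in the double mutant and 95.2, 85.9 and 78.9 TPM in Col-0, a change of 0.40 (SE 0.06, limma adjusted p = 0.000132). RNR1, the large subunit of ribonucleotide reductase, and TK1a, a thymidine kinase, were higher by 0.14 and 0.24 (adjusted p = 0.00939 and 0.0165), and RNR2A, another small subunit, did not pass at 0.11 (adjusted p = 0.0876). RPA1A, which coats single-stranded DNA, and AT5G26680, annotated as an exonuclease family protein, were higher by 0.19 and 0.33 (adjusted p = 0.0129 and 0.00420). LIG1, the ligase that joins the newly made fragments, did not pass at 0.08 (adjusted p = 0.148). Of the 3 subunits of chromatin assembly factor 1, FAS1 and MSI1 were higher by 0.31 and 0.29 (adjusted p = 0.000474 and 8.99e-05), and FAS2 did not pass at 0.17 (adjusted p = 0.0577).

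How firmly single members passed differed. The 8 with the largest changes (CDC45, MCM6, PCNA2, PCNA1, POLA3, MCM7, AT1G07270 and TSO2) passed in all 23 alternatives tried, and 24 of the 31 did. The other 7 were AT5G63960, MCM10, RNR1, RPA1A, SLD5, TIL1 and TK1a. With median-of-ratios scaling RNR1 (0.0997), AT5G63960 (0.148), RPA1A (0.0676) and TIL1 (0.0604) lost their calls, each with its adjusted p. AT5G63960 lost it also with upper-quartile scaling (0.0846), no filter on low values (0.0567) and only these groups in the fit (0.101), as did TIL1 in that last case (0.0656). Leaving out 1 library lost the calls of AT5G63960 (adjusted p = 0.0503 to 0.207 without the mNES line replicate 3, the double mutant replicate 3, myb3r4 replicate 2 or 3, myb3r1 replicate 1, 2 or 3 or Col-0 replicate 2 or 3), MCM10 (0.0622 to 0.0642 without the double mutant replicate 3 or Col-0 replicate 3), RPA1A (0.0659 without the double mutant replicate 3), SLD5 (0.0571 to 0.0669 without the double mutant replicate 1 or 3 or Col-0 replicate 1), TIL1 (0.0501 to 0.0893 without the double mutant replicate 2 or 3 or Col-0 replicate 2) and TK1a (0.0586 to 0.0669 without the double mutant replicate 1 or 3). Of the members higher in the double mutant 15 of 31 (48.4%) had an E2F match upstream, and of those that did not pass 4 of 15 (26.7%) had one. The AACGG core was upstream of 7 of the 31 (22.6%) and 4 of the 15 (26.7%).

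**Figure D3:**
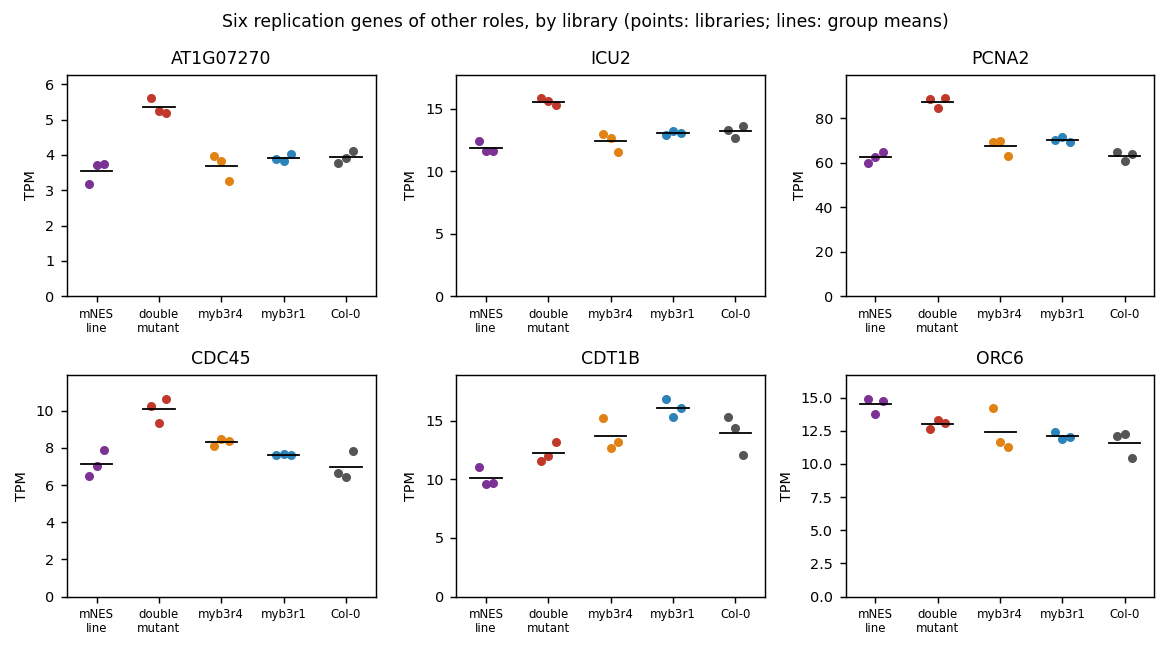
TPM (y axis, from 0) of AT1G07270, ICU2, PCNA2, CDC45, CDT1B and ORC6 in each of the 15 libraries (points), by group on the x axis, with lines for group means. The double mutant lies above all other libraries for the first 4 genes, while CDT1B is highest in myb3r1 at 15.3 to 16.9 TPM and ORC6 tends to its highest values in the mNES line at 13.7 to 14.9 TPM.

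In the single mutants few or no members passed. In myb3r4 against Col-0 0 members were higher and 0 lower by limma, against 4.55% and 3.04% of all genes. In myb3r1 against Col-0 2 members were higher and 0 lower, against 3.16% and 3.1% of all genes. The libraries did not overlap with Col-0 for 7 members that were higher and 0 lower in myb3r4 (15.5% and 13.3% of all genes), and for 13 higher and 0 lower in myb3r1 (14.3% and 13%). Without Col-0 replicate 1 (TSO2) or Col-0 replicate 3 (CDC45), 1 member was higher in myb3r4. Of the 5 genes of green leaf tissue, 4 were lower in each single mutant, whereas 0 of the 6 anther and tapetum genes passed in either. The 4 meristem genes tested gave 1 higher in myb3r4 and 0 that passed in myb3r1. The median over the members was 0.08 in myb3r4 (all genes 0.00) and 0.09 in myb3r1 (all genes 0.01). These comparisons share the Col-0 libraries with each other and with that of the double mutant, so their values are not independent of each other.

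The members that passed in myb3r1 were TSO2 and CDT1A. TSO2 was at 99.2, 101 and 103 TPM in myb3r1 and 95.2, 85.9 and 78.9 TPM in Col-0, a change of 0.22 (SE 0.06, limma adjusted p = 0.0379). CDT1A was at 23.5, 24.6 and 25.3 TPM in myb3r1 and 22.1, 21.4 and 21.9 TPM in Col-0, a change of 0.16 (SE 0.04, limma adjusted p = 0.0305). Neither gene overlapped between the groups, yet neither call held when single libraries were left out. The adjusted p of TSO2 was 0.0508 to 0.136 without the double mutant replicate 1, myb3r4 replicate 1, myb3r1 replicate 1, 2 or 3 or Col-0 replicate 2 or 3, and that of CDT1A was 0.05001 to 0.120 without myb3r1 replicate 2 or 3 or Col-0 replicate 1, 2 or 3. The call of TSO2 was also lost with either scaling, no filter on low values or no variance trend. A replicate block or only these groups in the fit ended it too (adjusted p = 0.0515 to 0.0893 over these settings). That of CDT1A was lost with a replicate block (adjusted p = 0.0557) and with only these groups in the fit (adjusted p = 0.0780). Without myb3r4 replicate 3, 4 members were higher in myb3r1.

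The double mutant also stood above each single mutant. These comparisons use the same 3 double mutant libraries as those with Col-0 and with the mNES line. Their values are thus not independent of each other. Against myb3r4, 27 members were higher and 0 lower (background 20.08% of all genes higher and 14.6% lower, 34.7% in either direction), and against myb3r1, 23 were higher and 1 lower (background 17.2% higher and 12.9% lower). The libraries did not overlap for 30 members higher and 1 lower against myb3r4 (28.6% and 19.1% of all genes), and for 32 higher and 3 lower against myb3r1 (27.2% and 18.3%). With median-of-ratios scaling the counts past the test were 19 higher and 0 lower against myb3r4, and 18 higher and 1 lower against myb3r1. The background was then 14.5% higher and 18.1% lower against myb3r4, and 12.4% higher and 16.1% lower against myb3r1. The share of higher genes among all calls was then 44.4% rather than 57.9%, and 43.6% rather than 57.1%. All 6 ring genes and all 4 genes of the clamp and cohesion group were higher in both comparisons. The call of CTF18 against myb3r4 was lost in 17 of the 23 alternatives (adjusted p = 0.0510 to 0.143), and that of MCM2 against myb3r1 was lost without myb3r1 replicate 2 (adjusted p = 0.0564). In every alternative 18 of the 27 calls against myb3r4 and 17 of the 24 against myb3r1 were kept. AT5G63960 lost its call against myb3r4 in 16 alternatives. Against myb3r1, LIG1, ORC3 and TSO2 lost theirs in 16, 15 and 11. The median over the members was 0.19 against myb3r4 and 0.18 against myb3r1, where all genes had 0.04 and 0.04. Markers of other tissues were higher too. Against myb3r4 these were 6 of 6 anther and tapetum genes (median 0.80), 4 of 5 meiocyte genes and 4 of 5 genes of green leaf tissue, the fifth being lower. Against myb3r1 they were 4 of 6 anther and tapetum genes (median 0.60), 3 of 5 meiocyte genes and 1 of 5 genes of green leaf tissue, with 1 lower. As a sum, however, the 5 genes of green leaf tissue were lower in the double mutant, at 7086 to 7727 TPM. They summed to 8125 to 8295 TPM in myb3r4 and 8394 to 8636 TPM in myb3r1. Among the 4 meristem genes tested, 1 was lower against myb3r4 and 0 passed against myb3r1. Their part was not tested.

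AT1G07270 had the largest difference in both, 0.48 (SE 0.09, limma adjusted p = 0.000989) against myb3r4 and 0.41 (SE 0.09, limma adjusted p = 0.00336) against myb3r1. Against myb3r4, PCNA2 (0.37), MCM6 (0.36), POLA3 (0.35), ORC1A (0.34), MCM3 (0.32), ICU2 (0.32) and AT5G26680 (0.32) followed. ORC1A, a subunit of the origin recognition complex, was at 2.04, 1.96 and 2.09 TPM in the double mutant and 1.37, 1.62 and 1.504 TPM in myb3r4, and its call (adjusted p = 0.0344) was lost without the double mutant replicate 1, 2 or 3 or myb3r4 replicate 1 or 3 (adjusted p = 0.0576 to 0.103), with median-of-ratios scaling (0.0568) and with only these groups in the fit (0.102). Against myb3r1, MCM6 (0.39), CDC45 (0.38), POLA3 (0.32), PCNA2 (0.31), MCM7 (0.29) and PSF2 (0.28) followed, and PSF2 lost its call without the double mutant replicate 2 (adjusted p = 0.0513). CDT1B alone was lower. It was at 11.6, 12.002 and 13.2 TPM in the double mutant and 16.9, 15.3 and 16.1 TPM in myb3r1, with no overlap and a change of -0.38 (SE 0.09, limma adjusted p = 0.00738).

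For 4 members the change that goes with the label myb3r4 differed by whether the plants also carried the label myb3r1. The interaction contrast takes the log2 difference between the double mutant and myb3r1 and subtracts the one between myb3r4 and Col-0. It was positive and passed for 4 of 46 members and negative for 0, against 6.31% and 5.95% of all genes. For AT1G07270 it was 0.49 (SE 0.12, limma adjusted p = 0.0199), with a difference of 0.41 between the double mutant and myb3r1 and of -0.09 between myb3r4 and Col-0. For ICU2 it was 0.33 (SE 0.07, limma adjusted p = 0.0106), from differences of 0.25 and -0.08. MCM6 had an interaction of 0.28 (SE 0.07, limma adjusted p = 0.0218), and PCNA2 one of 0.22 (SE 0.06, limma adjusted p = 0.0334). The calls of AT1G07270 and ICU2 held in all 23 alternatives. That of MCM6 was lost without the double mutant replicate 3, myb3r4 replicate 3, myb3r1 replicate 2 or Col-0 replicate 1 (adjusted p = 0.0529 to 0.0574), which left 2 members called in each case, and that of PCNA2 without the double mutant replicate 1 or 3, myb3r4 replicate 3, myb3r1 replicate 1, 2 or 3 or Col-0 replicate 1 or 3 (adjusted p = 0.0509 to 0.0769). PCNA2 lost its call also with median-of-ratios scaling (0.0702), upper-quartile scaling (0.0710), a replicate block (0.0561) and no variance trend (0.0554). Over all 46 members the median interaction was 0.12, and over all genes it was 0.03. The share of members called, 8.7%, was thus near the background. Of the markers, 4 of 5 genes of green leaf tissue had a positive interaction that passed (median 0.96), as did 2 of 6 anther and tapetum genes and 1 of 5 meiocyte genes. The fifth gene of green leaf tissue and 1 of the 4 meristem genes tested had a negative interaction that passed. The part of these markers was not tested.

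In the mNES line the replication genes as a group lay near their Col-0 levels, with 3 exceptions. Of the 46 members 1 was higher and 2 were lower, against 7.6% and 9.39% of all genes, and the median was -0.03, as it was over all genes (-0.03). The libraries did not overlap for 1 member that was higher and 10 that were lower, against 13.7% and 20% of all genes. With median-of-ratios scaling 1 member was higher and 1 lower, against 10.1% and 6.85% of all genes, and 59.6% of all calls were higher rather than 44.7%. CDT1B was at 11.04, 9.63 and 9.73 TPM in the mNES line, 11.6, 12.002 and 13.2 TPM in the double mutant, 15.2, 12.6 and 13.2 TPM in myb3r4, 16.9, 15.3 and 16.1 TPM in myb3r1 and 15.3, 14.4 and 12.1 TPM in Col-0. All 3 libraries of the mNES line lay below the 12 others, and the change against Col-0 was -0.44 (SE 0.09, limma adjusted p = 0.00619). FAS2, a subunit of chromatin assembly factor 1, was at 9.58, 10.1 and 9.81 TPM in the mNES line and 11.4, 11.4 and 11.5 TPM in Col-0, a change of -0.21 (SE 0.07, limma adjusted p = 0.0415). That call was lost without the mNES line replicate 1, 2 or 3, the double mutant replicate 1 or 2, myb3r1 replicate 2 or Col-0 replicate 1, 2 or 3 (adjusted p = 0.0504 to 0.112), and CDT1B was then the 1 member lower in 8 of these 9 cases. FAS2 lost it also with median-of-ratios scaling (0.0681), upper-quartile scaling (0.0631), no filter on low values (0.0514) and only these groups in the fit (0.0511). ORC6, a subunit of the origin recognition complex, was at 14.9, 13.7 and 14.8 TPM in the mNES line, 12.6, 13.3 and 13.1 TPM in the double mutant, 14.2, 11.7 and 11.3 TPM in myb3r4, 12.4, 11.9 and 12.03 TPM in myb3r1 and 12.1, 12.3 and 10.4 TPM in Col-0. Its change against Col-0 was 0.31 (SE 0.08, limma adjusted p = 0.0181), and the call was lost without the mNES line replicate 1 or 3 or Col-0 replicate 3 (adjusted p = 0.0505 to 0.0814). Without Col-0 replicate 1, 2 members were higher in the mNES line, and without myb3r4 replicate 3, 3 were lower. The ring genes lay between -0.12 and -0.01 and none passed; MCM6, at -0.12, had an adjusted p of 0.105. Of the markers, 4 of 6 anther and tapetum genes (median -0.63), 1 of 5 meiocyte genes and 4 of 5 genes of green leaf tissue (median -0.56) were lower. Among the 4 meristem genes tested, 0 passed. The part of these markers was not tested.

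Most replication transcripts were lower in the mNES line than in the double mutant. Of the 46 members 35 were lower in the mNES line and 0 higher, against a background of 34.1% lower and 20.4% higher. The libraries did not overlap for 36 members that were lower and 2 that were higher, against 38.3% and 21.7% of all genes. With median-of-ratios scaling 25 members were lower and 1 higher, against 22.9% and 27.3% of all genes, and 54.4% of all calls were higher rather than 37.5%. The median over the members was -0.27, against -0.08 over all genes. The anther and tapetum markers were lower too, all 6 of them, with a median of -1.34, as were 4 of 5 meiocyte genes. Higher were 2 of 5 genes of green leaf tissue and 1 of the 4 meristem genes tested. The part of these markers was not tested.

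Every ring gene, every gene of the clamp and cohesion group and every subunit of chromatin assembly factor 1 was lower in the mNES line than in the double mutant. MCM6 differed most, by -0.60 (SE 0.05, limma adjusted p = 5.89e-07), followed by AT1G07270, by -0.53 (SE 0.09, limma adjusted p = 0.000176). PCNA2 (-0.48), CDC45 (-0.48), MCM7 (-0.43), ETG1 (-0.43), MCM3 (-0.42) and MCM2 (-0.40) came next, with adjusted p from 1.16e-06 to 0.000286. ETG1 was at 22.3, 24.4 and 23.1 TPM in the mNES line and 33.1, 31.1 and 30.2 TPM in the double mutant, with no overlap. Between these lines 11 members did not pass, among them 5 of the 7 origin recognition genes, CDC6, PSF1, PSF3, MCM9, TIL2 and TK1a. FAS2 was at 9.58, 10.1 and 9.81 TPM in the mNES line and 13.3, 12.8 and 12.6 TPM in the double mutant, a change of -0.38 (SE 0.07, limma adjusted p = 0.000303). All 8 of the members with the largest differences passed in all 23 alternatives, and 25 of the 35 did.

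**Figure D4:**
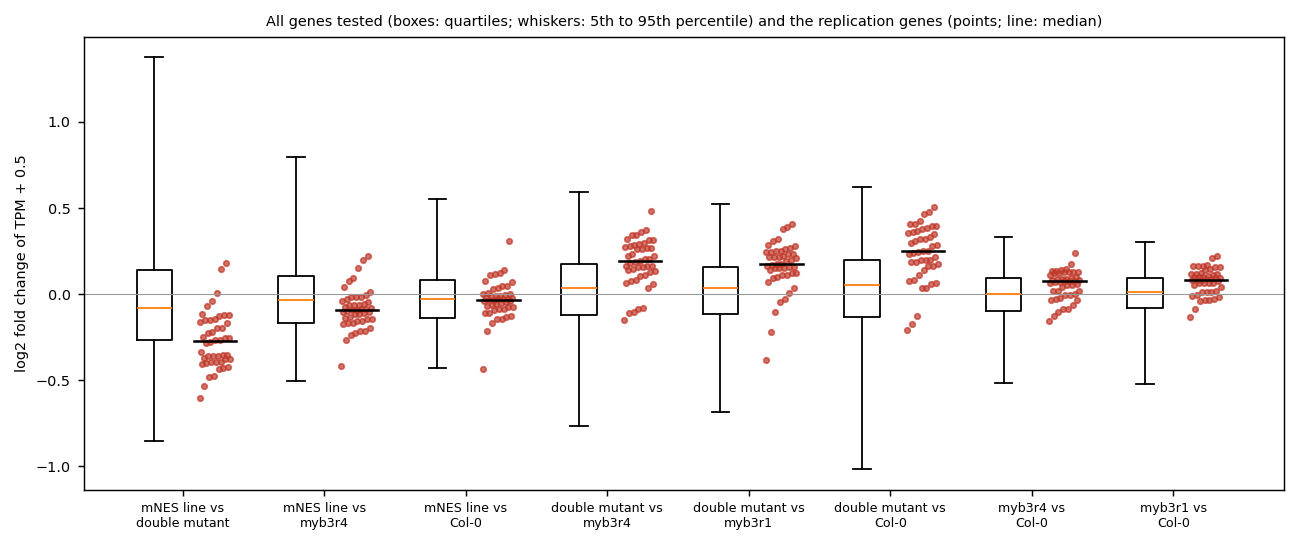
Log2 fold changes on the log2(TPM + 0.5) scale (y axis) of the 46 replication genes (red points, black line for their median) beside all 21737 genes tested (boxes for quartiles, orange line for the median, whiskers for the 5th and 95th percentiles) in 8 comparisons (x axis). The members' median lies at -0.27 for the mNES line against the double mutant and at 0.25 for the double mutant against Col-0, and at -0.03 for the mNES line against Col-0.

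Against myb3r4, 11 members were lower in the mNES line and 0 higher (23.9% of the members, against a background of 17.9% lower and 11.6% higher). The libraries did not overlap for 19 members that were lower and 1 that was higher, against 25.2% and 16.2% of all genes. With median-of-ratios scaling 4 were lower and 1 higher, against 12.7% and 15.8% of all genes. Of all calls 55.6% were then higher rather than 39.4%. With upper-quartile scaling 5 were lower and 1 higher, against 14.1% and 14.3% of all genes, and 50.3% of all calls were higher. Under both scalings the share of members called lower was thus below that of all genes. CDT1B again differed most, with 11.04, 9.63 and 9.73 TPM in the mNES line and 15.2, 12.6 and 13.2 TPM in myb3r4, a change of -0.42 (SE 0.09, limma adjusted p = 0.00452). FAS2 (-0.26), MCM6 (-0.24), ORC5 (-0.23), FAS1 (-0.22), CTF18 (-0.19), RPA1A (-0.17) and MCM4 (-0.17) followed, and all 3 subunits of chromatin assembly factor 1 passed, as did CDT1A and ETG1. MCM6, FAS1 and CDT1B kept their calls in all alternatives. Single libraries ended the calls of ORC5 (0.0564 to 0.135 without the mNES line replicate 1 or 3, the double mutant replicate 1, myb3r4 replicate 2 or 3, myb3r1 replicate 3 or Col-0 replicate 1, 2 or 3), CTF18 (0.0624 to 0.0962 without the mNES line replicate 1 or 2 or myb3r4 replicate 1 or 2), RPA1A (0.0642 to 0.104 without the mNES line replicate 1 or 2 or myb3r4 replicate 1, 2 or 3) and MCM4 (0.0670 to 0.112 without the mNES line replicate 1 or 2 or myb3r4 replicate 1 or 2), each given as an adjusted p. They also ended those of MSI1 (0.0777 to 0.103 without the mNES line replicate 1 or myb3r4 replicate 1 or 2), CDT1A (0.0531 to 0.0630 without the mNES line replicate 1 or myb3r4 replicate 1 or 2) and ETG1 (0.0675 to 0.0706 without the mNES line replicate 1 or myb3r4 replicate 1). Median-of-ratios scaling ended the calls of all these 7 genes, for MSI1 with an adjusted p of 0.101, and upper-quartile scaling ended those of all but ETG1. With only these groups in the fit all 7 lost their calls, as did FAS2 (0.0589). Without myb3r4 replicate 1, myb3r4 replicate 2 or replicate 1 of the mNES line, 5 members were lower. Without Col-0 replicate 3, myb3r4 replicate 1 or replicate 3 of the mNES line, 1 member was higher. Of the markers, 4 of 6 anther and tapetum genes (median -0.52) and 2 of 5 meiocyte genes were lower and 4 of 5 genes of green leaf tissue were higher (median 0.33). Among the 4 meristem genes tested, 1 was higher and 1 lower. The part of these markers was not tested.

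Genes that come in pairs did not always move as pairs. AT1G07270 made up 33.0% to 37.4% of the summed TPM of itself and CDC6 in the mNES line, 40.3% to 48.3% in the double mutant, 32.8% to 35.7% in myb3r4, 34.1% to 36.7% in myb3r1 and 36.9% to 39.0% in Col-0, so that the double mutant lay above all other libraries. CDT1B made up 31.4% to 35.2% of the CDT1 pair in the mNES line, 31.5% to 33.9% in the double mutant, 35.0% to 39.5% in myb3r4, 38.4% to 41.8% in myb3r1 and 35.5% to 41.0% in Col-0. For the catalytic subunit of polymerase epsilon, TIL2 gave 7.59% to 9.65%, 5.68% to 6.75%, 7.41% to 8.95%, 7.64% to 9.10% and 7.81% to 9.35% in the same order of groups, lowest in the double mutant. The PCNA2 share was 53.3% to 54.8% in the mNES line, 54.0% to 57.7% in the double mutant and 54.6% to 54.9% in Col-0, and these ranges overlapped. Paralogs can share reads, so a share between near-identical genes is uncertain, and how the authors divided such reads was not given in the sources used here.

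A list of 30 further replication genes was set beside the members. In the double mutant 22 of the 30 were higher than in Col-0 and 0 were lower, against 24.5% and 17.1% of all genes, with a median of 0.26. TIMELESS, a protein of the replication fork, changed by 0.47, and RPA1D and RPA1B, large subunits of the single-strand binding complex, by 0.46 and 0.44 (adjusted p = 0.000190, 4.96e-05 and 6.74e-05). Between the mNES line and the double mutant 24 of the 30 were lower in the mNES line and 0 higher, against 34.1% and 20.4% of all genes. By contrast a list of 17 genes of the G2 and M phases moved in both directions in the double mutant. Of these, 9 were higher and 7 lower than in Col-0, against 24.5% and 17.1% of all genes. KN, a syntaxin of cytokinesis, was at 30.7, 34.4 and 31.2 TPM in the double mutant and 97.2, 94.7 and 90.5 TPM in Col-0, a change of -1.54, whereas BUBR1, a spindle checkpoint gene, changed by 0.95 (adjusted p = 8.93e-10 and 2.10e-07). The largest size of change among the 46 replication genes in that comparison was 0.50, for CDC45.

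Part of the members' values is uncertain for a reason of annotation. Of the 46 members, 16 overlap another annotated gene, 13 of them on the other strand, and reads of such neighbours cannot be told apart without strand. Those with overlaps on the other strand include MCM7, PCNA2, ICU2, POLA3 and MSI1. MCM2 to MCM6, CDC45, AT1G07270, CDT1A, CDT1B, PCNA1 and FAS1 overlap no annotated gene.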

How the data were processed

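RNA from 15 libraries (5 groups of 3) was measured as TPM per gene. The deposited TPM values were made by the authors with Salmon after FastQC, with TAIR10 as the reference, per the submitters' processing notes, which give no versions here; how transcripts were summed to genes is not given in the sources used here. All 15 value columns were used and 0 were left out, and every library summed to 1e+06. The plan allowed for counts or TPM, and TPM keeps no depth, so no count model was run and no counting interval is given.

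The 21737 of 33326 genes with TPM no lower than 1 in 3 or more libraries were fitted on log2(TPM + 0.5) with limma 3.58.1 in R 4.3.3, with 5 group means, no covariate, trended moderated variances (10 residual and 3.18 prior degrees of freedom) and two-sided p-values adjusted by Benjamini-Hochberg over all genes tested in each of 9 contrasts, with a threshold of 0.05. The added 0.5 makes fold changes of low genes smaller than their ratio of TPM. The members and the other lists were chosen with earlier results of these data known. Named members were the 8 largest changes past the threshold in each comparison, both genes of each paralog pair, and members called against the majority. The fit was run on simulated data with known changes. Its pass condition covered only the larger simulated size of change and set no limit on false calls. That size exceeds every change of the members, so the run does not check changes as small as theirs. Names and positions came from the RefSeq annotation of TAIR10.1, which held all 46 members; motifs were searched in Python 3.11.15, and figures were drawn with matplotlib 3.10.9. Alternatives covered the pseudocount, the low-value filter, 2 scalings, the replicate block, the variance trend, the groups in the fit and leaving out each library.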

Additional observations from a re-analysis of the deposited data

Results flagged for a closer look

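For 4 replication genes the effect that goes with myb3r4 differed between plants labelled myb3r1 and plants not so labelled, by a test of that difference (limma interaction contrast, adjusted over all 21737 genes, n = 3 per group). They were 8.7% of the 46 members, near the 6.31% of all genes that passed in this direction. The value is the log2 difference of the double mutant from myb3r1 minus that of myb3r4 from Col-0. It was 0.49 for AT1G07270 (adjusted p = 0.0199), 0.33 for ICU2 (adjusted p = 0.0106), 0.28 for MCM6 (adjusted p = 0.0218) and 0.22 for PCNA2 (adjusted p = 0.0334). For all 4 genes the 3 libraries of the double mutant lay above the 3 of myb3r1. Between myb3r4 and Col-0 the difference did not pass for any of them, at -0.09, -0.08, 0.11 and 0.09 in the same order of genes. The call of PCNA2 was lost in 12 of the 23 alternatives (adjusted p = 0.0509 to 0.0769) and that of MCM6 in 4 (adjusted p = 0.0529 to 0.0574).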

How the results depend on the processing

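No member that passed the test changed sign in any of 23 alternatives, in each comparison. In the double mutant against Col-0, 25 to 31 members were higher when 1 library was left out and 24 of the 31 passed in every alternative; for the mNES line against the double mutant 25 of 35 did. Small counts moved. In myb3r1 against Col-0, 1 member was higher rather than 2: CDT1A with no low-value filter, either scaling or no variance trend, but MCM5 with the replicate block and PCNA2 with only the 2 groups in the fit, where TSO2 and CDT1A were both lost. The count was 0 to 4 when 1 library was left out. In myb3r4 against Col-0 leaving out 1 library gave 0 to 1 higher, and in the double mutant against Col-0 it gave 0 to 1 lower. In the mNES line against Col-0, 1 member was lower rather than 2 with no filter, either scaling or only those groups in the fit, and leaving out 1 library gave 0 to 2 higher and 1 to 3 lower. Against myb3r4, 1 member was higher in the mNES line (ORC6) rather than 0 with a pseudocount of 1, either scaling or the replicate block, and 4, 5 and 3 were lower rather than 11 with median-of-ratios scaling, upper-quartile scaling and only those groups in the fit; leaving out 1 library gave 0 to 1 higher and 5 to 12 lower. Against the double mutant 1 member (ORC6) was higher in the mNES line with median-of-ratios scaling. The members' median for the mNES line against the double mutant was -0.18 with that scaling and -0.22 with upper-quartile scaling, and for the double mutant against Col-0 it was 0.19 and 0.23. The interaction gave 2 to 6 members when 1 library was left out. The cause of these moves was not tested. No scaling moved the median of all genes by more than 0.09 on the log2 scale. Over 30 pairs of same-numbered replicates the correlations of their deviations ran from -0.37 to 0.22, and 5 were over 0.1. Of the 15 libraries, 1 was nearest to its own number. No common deviation by number was seen, but with 3 libraries per group a shared batch could be missed. With the replicate block 30 members were higher in the double mutant than in Col-0, against 31 without it. The block ended the calls of TSO2 and CDT1A in myb3r1 against Col-0 (adjusted p = 0.0646 and 0.0557), of AT5G63960 in the double mutant against Col-0 (0.0527), of CTF18 there against myb3r4 (0.0737) and of PCNA2 in the interaction (0.0561), 10 calls in all. TPM gives no depth, so counting error limits every value by an unknown amount, most for TIL2 near 1 TPM.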

Other observations

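Among the list of 30 further replication genes, DUT1 and ASF1B differed from each other in their order of groups. DUT1, which keeps uracil out of DNA, was at 67.0, 77.3 and 77.5 TPM in the mNES line, 74.3, 74.8 and 82.5 TPM in the double mutant, 76.0, 77.1 and 69.1 TPM in myb3r4, 78.7, 79.5 and 78.7 TPM in myb3r1 and 65.2, 57.8 and 60.2 TPM in Col-0, so that Col-0 was lowest. ASF1B, a histone chaperone, was at 40.6, 43.0 and 42.2 TPM in the mNES line, 56.3, 54.3 and 58.9 TPM in the double mutant, 47.4, 51.0 and 49.5 TPM in myb3r4, 50.9, 44.8 and 50.2 TPM in myb3r1 and 53.0, 49.3 and 51.4 TPM in Col-0, with the mNES line below every other library. Its change was -0.29 in the mNES line against Col-0 (limma adjusted p = 0.00219). These 2 genes were chosen after their values were seen.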
